A study of Mus musculus with 6 samples.

Results

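The Krüppel-like factors (KLFs) described here are 9 zinc finger transcription factors of the vessel wall, *Klf2*, *Klf3*, *Klf4*, *Klf5*, *Klf6*, *Klf9*, *Klf10*, *Klf13* and *Klf15*. They were taken by gene symbol from the 55426 genes of the deposited table, and all 9 were found once each. RNA of the abdominal aorta was sequenced in 3 libraries of male control mice and 3 of male *Prdm16*SMKO mice. The labels number the libraries as replicates without saying that each comes from a separate mouse, so p-values measure the spread between these libraries. *Prdm16*SMKO mice carry *Prdm16* fl/fl and *Myh11*-CreERT2, a tamoxifen-inducible Cre recombinase driven in vascular smooth muscle cells (VSMCs) by the *Myh11* promoter and located on the Y chromosome. The labels call the other group control, and the study describes it as wild-type mice that carry *Myh11*-CreERT2. All mice are of the C57BL/6J strain, and the submitters' design text gives tamoxifen at 75 mg/kg/day for 5 days by gavage from an age of 8 to 10 weeks, with RNA taken 2 weeks later. The recombinase acts in VSMCs, and the aorta also holds endothelial cells, fibroblasts, macrophages, fat cells and nerve, so every value below is a level of the whole wall.

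KLFs bind GC-rich and CACCC-type DNA through 3 zinc fingers near their carboxyl end, and their other parts recruit activators or repressors. In vessels *Klf2* and *Klf4* are best known as flow-responsive factors of the endothelium, *Klf4* and *Klf5* as factors that oppose or remodel the contractile program of VSMCs, and *Klf15* as a restraint on VSMC growth. *Klf6* and *Klf10* are induced early after injury and after TGF-β, and *Klf9*, *Klf10* and *Klf15* are known targets of glucocorticoids or of the circadian clock. Several KLFs are also immediate-early genes, whose RNA rises and decays within a short time after a stimulus.

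No KLF among the 9 (0 of 9) had an adjusted p under 0.05 for *Prdm16*SMKO against control mice, with limma and Benjamini-Hochberg adjustment over 15775 genes. In the same fit 56 genes, 0.355% of those tested, were past that threshold. Unadjusted, 3 of the 9 KLFs had a p under 0.05, *Klf2* and *Klf6* lower and *Klf10* higher in *Prdm16*SMKO mice, where 8.74% of all tested genes had such a p, 3.85% lower and 4.88% higher. In the same 3 genes the values of both groups did not overlap, which was so in 12.8% of all tested genes, 5.76% lower and 7.02% higher. Of the 9 KLFs 5 had a lower and 4 a higher fitted level, and their median log2 fold change was −0.09, against 0.02 for all tested genes. Levels are in TPM, the share of transcripts scaled to a fixed total and set per transcript length, so levels of different genes can be compared. Fold changes are differences of mean log2(TPM + 0.5), *Prdm16*SMKO minus control. The exact permutation test (two-sided) has a floor of p = 0.1 in a design of 3 and 3 libraries.

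The sequences before the start sites of *Klf2*, *Klf4*, *Klf6* and *Klf15* are shown, the first 3 because they had the lowest log2 fold changes of the 9 KLFs and the last for its repeated E-box, a choice made after the values were seen. They are RefSeq sequences of GRCm38.p6, each 5′ to 3′ on the strand of the gene, from 250 bases before to 10 bases after the annotated start. Capitals mark CACCC, the core of KLF sites, TGACG, one arm of the cAMP response element, and CACGTG, the E-box bound by clock factors, on either strand.
*Klf2*, chr8:72318812-72319071, plus strand: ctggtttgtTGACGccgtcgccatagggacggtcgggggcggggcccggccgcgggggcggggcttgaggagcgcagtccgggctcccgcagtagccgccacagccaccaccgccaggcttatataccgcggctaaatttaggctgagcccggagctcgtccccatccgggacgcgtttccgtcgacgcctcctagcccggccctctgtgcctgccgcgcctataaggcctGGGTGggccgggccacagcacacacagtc
*Klf4*, chr4:55532466-55532725, minus strand: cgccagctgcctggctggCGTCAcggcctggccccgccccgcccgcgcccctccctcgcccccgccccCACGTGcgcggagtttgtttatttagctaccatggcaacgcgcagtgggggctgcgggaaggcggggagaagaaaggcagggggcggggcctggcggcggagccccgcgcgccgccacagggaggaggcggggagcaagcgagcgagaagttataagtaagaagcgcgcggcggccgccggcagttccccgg
*Klf6*, chr13:5861239-5861498, plus strand: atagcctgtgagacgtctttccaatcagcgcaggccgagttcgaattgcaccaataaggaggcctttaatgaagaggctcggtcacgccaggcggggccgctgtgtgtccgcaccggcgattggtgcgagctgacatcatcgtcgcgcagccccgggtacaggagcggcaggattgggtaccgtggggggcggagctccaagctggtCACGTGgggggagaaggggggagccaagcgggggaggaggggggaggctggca
*Klf15*, chr6:90462326-90462585, plus strand: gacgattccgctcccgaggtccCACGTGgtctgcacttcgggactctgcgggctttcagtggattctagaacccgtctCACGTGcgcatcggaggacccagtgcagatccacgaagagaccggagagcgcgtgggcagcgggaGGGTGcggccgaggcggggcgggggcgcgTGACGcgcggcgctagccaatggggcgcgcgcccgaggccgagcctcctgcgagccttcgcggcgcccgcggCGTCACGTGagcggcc

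Such windows of 300 bases, which run to 50 bases after the start, were found for 7 of the 9 KLFs, and not for *Klf5* and *Klf10*. CACGTG, which reads the same on both strands, was in 3 of the 7 windows, those of *Klf4*, *Klf6* and *Klf15*, and in 7.15% of all 32851 windows. The *Klf15* window held it 3 times, starting 228, 172 and 3 bases before the start, and 0.0883% of all windows held it that often. The last of these overlaps a TGACG on the minus strand. CACCC was in 5 of the 7 windows and in 57.5% of all windows, with 5 copies in that of *Klf3*. TGACG was in 6 of the 7 and in 20.8% of all windows, and its full palindrome TGACGTCA was in none of the 7 and in 1.79% of all. TATAAA was in none of the 7 and in 13.6% of all windows. The CArG box, the MEF2 site and the glucocorticoid response element were in none of the 7, and in 1.63%, 0.164% and 0.475% of all windows. The 7 windows had a GC content of 63.0% to 76.7%, above the median of 52.7% over all windows, and the shares over all windows were not matched for it. A match is a stretch of letters and not a bound site.

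*Prdm16*, the targeted gene, was at 33.4, 36.8 and 30.8 TPM in the controls and at 20.8, 27.7 and 14.8 TPM in *Prdm16*SMKO mice, with no overlap (log2 fold change −0.70, limma, Benjamini-Hochberg adjusted p = 0.376). The libraries held 20332 to 22100 genes above 0 TPM, and their read counts are unknown, although an average of 40 M read pairs is given for the series. Mitochondrial genes took 19.1% to 23.2% of the TPM in controls and 15.8% to 27.4% in *Prdm16*SMKO mice. Ribosomal RNA genes took 15.6% to 31.4% in controls and 15.7% to 29.9% in *Prdm16*SMKO mice. All 6 VSMC markers and all 8 endothelial markers were above the expression minimum of 0.5 TPM. Summed VSMC markers ran from 14728 to 25026 TPM in controls and from 11294 to 17330 TPM in *Prdm16*SMKO mice, and summed endothelial markers from 248 to 324 and from 302 to 507 TPM. Summed macrophage markers were at 70.2 to 110 TPM in controls and 110 to 201 TPM in *Prdm16*SMKO mice, with all 7 higher in mean, 5 of them at an unadjusted p under 0.05 (limma). All 6 VSMC markers had a lower fitted level, 2 of them at an unadjusted p under 0.05. Of the 8 endothelial markers 7 had a higher fitted level, 1 of them at such a p. Of all tested genes 3.85% were lower and 4.88% higher at an unadjusted p under 0.05. Fibroblast markers summed to 758 to 924 TPM in controls and 729 to 1316 TPM in *Prdm16*SMKO mice. Single libraries stood apart in tissue around the vessel. *Prdm16*SMKO replicate 1 had 355 TPM of neuron and Schwann cell markers (11.1 to 87.2 in the other libraries), replicate 2 had 10964 TPM of erythroid markers (627 to 2728 in the others) and replicate 3 had 2516 TPM of adipocyte markers (461 to 1000 in the others). Skeletal and heart muscle markers summed to 6.52 to 14.1 TPM in controls and 10.3 to 46.1 TPM in *Prdm16*SMKO mice with *Myl7* at 0 in every library, and T and B cell markers to 0.74 to 5.81 TPM over all libraries. The part of these cell types in the KLF values was not tested. In bulk tissue fewer cells of a type and less RNA per cell cannot be told apart.

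The 9 KLFs together were at 372 ± 40.7 TPM in control and 327 ± 45.4 TPM in *Prdm16*SMKO mice (SD, n = 3 each, exact permutation test, two-sided p = 0.3). They made up 89.1% ± 0.747 and 88.2% ± 1.32 (SD, n = 3 each) of the TPM of the 17 KLF genes looked up. In control aortas *Klf6* was highest at 94.8 ± 8.01 TPM, followed by *Klf2* at 79.8 ± 12.3 and *Klf9* at 77.6 ± 17.9, and the ranges of neighbours in this order overlapped. These 3 genes took 25.5%, 21.5% and 20.7% of the TPM of the 9 KLFs. *Klf13* at 31.9 ± 8.56, *Klf4* at 28.3 ± 8.34, *Klf3* at 25.5 ± 3.16 and *Klf15* at 20.7 ± 5.45 TPM formed a second tier in which each range also overlapped the next (SD, n = 3 each). *Klf10* at 10.8 ± 1.16 TPM lay below all of these, and *Klf5* was lowest at 2.74 ± 0.850 TPM. In *Prdm16*SMKO aortas the order was *Klf9*, *Klf6*, *Klf2*, *Klf3*, *Klf13*, *Klf15*, *Klf4*, *Klf10* and *Klf5*. There the range of *Klf10* overlapped that of *Klf4* above it, while in controls *Klf10* did not reach the range of *Klf15* above it.

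**Figure D1:**
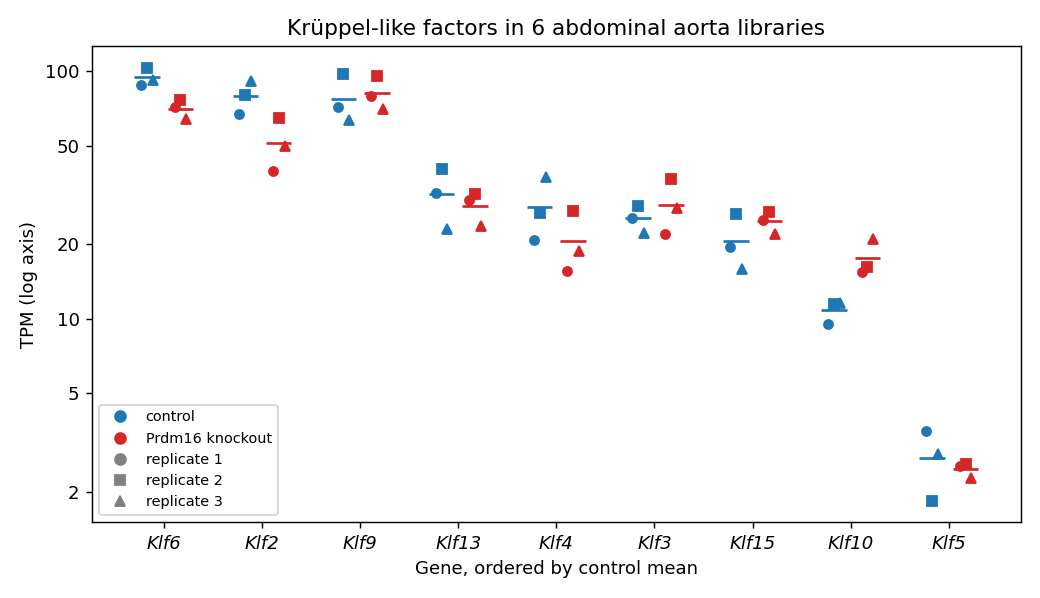
TPM of the 9 Krüppel-like factors on a log axis in each of the 3 control (blue) and 3 *Prdm16* knockout (red) libraries, with bars at the group means and a marker shape for each replicate number. The groups separate in *Klf6*, *Klf2* and *Klf10*, where the controls lie at 9.51 to 11.6 TPM and the knockouts at 15.5 to 21.01 TPM, and overlap in the other 6 genes.

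*Klf2* (ENSMUSG00000055148, chromosome 8 of GRCm38, 72319033 to 72321656), the factor that endothelium makes under steady flow, measured 67.3, 80.4 and 91.9 TPM in the controls, in the order of their replicate numbers, and 39.5, 64.7 and 49.9 TPM in the *Prdm16*SMKO mice. No library of one group reached the range of the other, with the smallest margin between *Prdm16*SMKO replicate 2 and control replicate 1. The means were 79.8 ± 12.3 and 51.4 ± 12.7 TPM (SD over 3 libraries each), which gave a log2 fold change of −0.65 (standard error 0.21, 95% interval −1.12 to −0.17, limma, unadjusted p = 0.0130, Benjamini-Hochberg adjusted p = 0.379). The exact permutation test gave a two-sided p of 0.1, the smallest it can give. *Klf4* (ENSMUSG00000003032, chromosome 4, 55527143 to 55532466), the close relative of *Klf2* that endothelium and dedifferentiating VSMCs both use, was at 20.8, 26.8 and 37.3 TPM in controls and at 15.6, 27.4 and 18.9 TPM in *Prdm16*SMKO mice. Its groups overlapped, since *Prdm16*SMKO replicate 2 exceeded control replicates 1 and 2. Its log2 fold change of −0.45 had a standard error of 0.26 and an interval of −1.05 to 0.15 (limma, Benjamini-Hochberg adjusted p = 0.749, exact permutation p = 0.3). With array weights the log2 fold change of *Klf4* was −0.07 and that of *Klf2* −0.42. Across libraries *Klf2* stood in a narrow proportion to *Klf4*, with 2.47 to 3.24 times as much TPM of *Klf2* as of *Klf4* in controls and 2.37 to 2.65 times in *Prdm16*SMKO mice.

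*Klf6* (ENSMUSG00000000078, chromosome 13, 5861482 to 5870394), an early response factor of injured vessels, was at 88.1, 103.6 and 92.6 TPM in controls and at 71.8, 76.5 and 64.1 TPM in *Prdm16*SMKO mice. All *Prdm16*SMKO libraries lay below all controls. The log2 fold change was −0.42 with a standard error of 0.15, the smallest error of the 9 genes (95% interval −0.75 to −0.09, limma, unadjusted p = 0.0188, Benjamini-Hochberg adjusted p = 0.436, exact permutation p = 0.1). Without *Prdm16*SMKO replicate 1 the unadjusted p was 0.0502 for *Klf6* and 0.0538 for *Klf2*, so that *Klf10* alone stayed under 0.05, and without *Prdm16*SMKO replicate 3 that of *Klf6* was 0.0757.

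*Klf10* (ENSMUSG00000037465, chromosome 15, 38291463 to 38300706), a TGF-β-inducible repressor that also oscillates with the clock, went the other way. It was at 9.51, 11.5 and 11.6 TPM in controls and at 15.5, 16.2 and 21.01 TPM in *Prdm16*SMKO mice, so that the lowest *Prdm16*SMKO library stood well above the highest control. The means were 10.8 ± 1.16 and 17.6 ± 2.99 TPM (SD over 3 libraries each), which gave a log2 fold change of 0.67 (standard error 0.18, 95% interval 0.26 to 1.07, limma, unadjusted p = 0.00500, Benjamini-Hochberg adjusted p = 0.256, exact permutation p = 0.1). This was the lowest p of the 9 genes. Its adjusted p was under 0.05 in 1 of the 18 alternative fits, that with array weights, at 0.0223. Over all 18 its log2 fold change ran from 0.53 to 0.79, and its unadjusted p was under 0.05 in each of them.

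**Figure D2:**
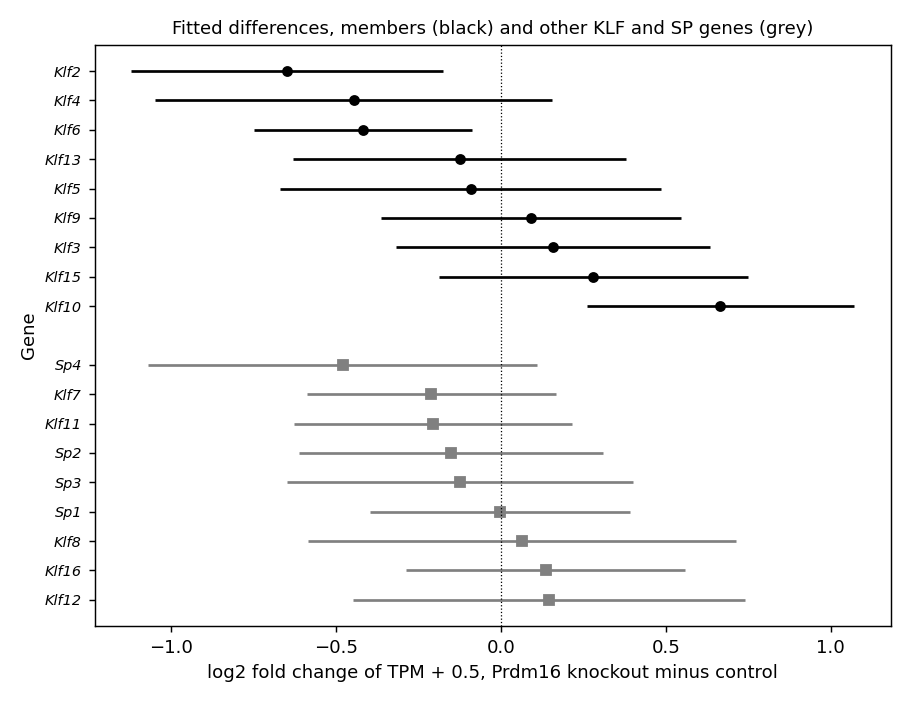
Log2 fold changes of TPM + 0.5 (*Prdm16* knockout minus control) with 95% intervals from limma for the 9 Krüppel-like factors (black circles) and for the 9 other KLF and SP genes that passed the expression minimum (grey squares). The intervals of *Klf2*, *Klf6* and *Klf10* do not cross 0, before any adjustment for the number of genes tested, and all others do.

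The other 5 KLFs overlapped between the groups. *Klf9* (ENSMUSG00000033863, chromosome 19, 23141226 to 23168134), a glucocorticoid and thyroid hormone target, was at 71.8, 97.7 and 63.4 TPM in controls and at 79.4, 96.2 and 70.4 TPM in *Prdm16*SMKO mice, and the spread within each group was wider than the difference of the means. Its log2 fold change was 0.09 with an interval of −0.36 to 0.55. *Klf15* (ENSMUSG00000030087, chromosome 6, 90462576 to 90475238), which governs amino acid and lipid use in muscle and fat, was at 19.5, 26.6 and 15.9 TPM in controls and at 25.01, 27.1 and 22.1 TPM in *Prdm16*SMKO mice. Control replicate 2 lay among the *Prdm16*SMKO libraries, and the log2 fold change was 0.28 with an interval of −0.19 to 0.75. *Klf3* (ENSMUSG00000029178, chromosome 5, 64803388 to 64832901), a repressor that binds CtBP, was at 25.5, 28.6 and 22.3 TPM and at 22.0, 36.9 and 28.0 TPM, with a log2 fold change of 0.16 (interval −0.32 to 0.63). An exon of *Gm20033*, a transcript at 0.74 to 2.03 TPM, overlaps *Klf3* on the opposite strand, and the labels do not say that reads were counted by strand. *Klf13* (ENSMUSG00000052040, chromosome 7, 63886351 to 63938915), best known for its part in lymphocytes and heart, was at 32.2, 40.2 and 23.1 TPM and at 30.2, 32.0 and 23.8 TPM, with a log2 fold change of −0.12 (interval −0.63 to 0.38). *Klf5* (ENSMUSG00000005148, chromosome 14, 99298691 to 99315036), a driver of VSMC remodelling, was low in every library, at 3.53, 1.84 and 2.85 TPM in controls and at 2.55, 2.59 and 2.27 TPM in *Prdm16*SMKO mice, and its log2 fold change was −0.09 (interval −0.67 to 0.49). The limma adjusted p-values of these 5 genes (Benjamini-Hochberg) were 0.835 for *Klf15* and above it for the rest. The intervals run from −0.67 at the lowest to 0.75 at the highest, so these p-values do not show equal levels.

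Proportions of genes within a library do not depend on how much of its TPM ribosomal or mitochondrial RNA takes. Those given here were chosen after the values were seen and carry no test. The ratio of *Klf10* to *Klf6* was 0.108, 0.111 and 0.125 in controls and 0.216, 0.212 and 0.328 in *Prdm16*SMKO mice. The ratio of *Klf10* to *Klf2* was 0.141, 0.143 and 0.126 in controls and 0.392, 0.251 and 0.421 in *Prdm16*SMKO mice. Both were higher in every *Prdm16*SMKO library than in any control. This had to follow from the single levels, since *Klf10* was higher and *Klf6* and *Klf2* were lower without overlap. The ratio of *Klf10* to *Klf9* overlapped, at 0.117 to 0.182 in controls and 0.169 to 0.299 in *Prdm16*SMKO mice, and so did that of *Klf2* to *Klf6*, at 0.764 to 0.992 and 0.551 to 0.846. *Klf2* stood at 0.937, 0.822 and 1.45 times *Klf9* in controls and at 0.498, 0.672 and 0.709 times in *Prdm16*SMKO mice. *Klf15* stood at 0.272, 0.272 and 0.250 times *Klf9* in controls and at 0.315, 0.281 and 0.314 times in *Prdm16*SMKO mice, also without overlap, while the levels of *Klf9* and *Klf15* themselves overlapped.

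Set against cell type markers in the same way, *Klf2* was at 0.271, 0.275 and 0.283 of the summed TPM of 8 endothelial markers in controls and at 0.131, 0.128 and 0.151 in *Prdm16*SMKO mice. The controls were within a narrow range and all *Prdm16*SMKO libraries were far below it. *Klf4* was at 0.0838, 0.0916 and 0.115 of that sum in controls and at 0.0516, 0.0540 and 0.0570 in *Prdm16*SMKO mice, so it did not overlap on this scale although its TPM did. *Klf6* did not overlap against endothelial markers either, at 0.286 to 0.355 in controls and 0.151 to 0.238 in *Prdm16*SMKO mice. The endothelial sum itself ran from 248 to 324 TPM in controls and from 302 to 507 TPM in *Prdm16*SMKO mice. A higher sum lowers the ratio of any gene to it. The share of all tested genes without overlap on this scale was not computed, so the separation is not shown to be particular to these KLFs. Against macrophage markers *Klf2* did not overlap, at 0.614 to 1.31 in controls and 0.322 to 0.358 in *Prdm16*SMKO mice. That had to follow, since *Klf2* was lower and the macrophage sum higher without overlap. The sum reached 109.6 TPM in controls and began at 110.29 TPM in *Prdm16*SMKO mice. Against the sum of VSMC markers *Klf2* overlapped, at 0.00321 to 0.00624 in controls and 0.00228 to 0.00486 in *Prdm16*SMKO mice, and so did *Klf6*, at 0.00414 to 0.00629 and 0.00414 to 0.00574. *Klf10* overlapped against macrophage markers, at 0.0868 to 0.165 in controls and 0.0810 to 0.141 in *Prdm16*SMKO mice, and against endothelial markers, and did not overlap against VSMC markers, at 0.000458 to 0.000784 and 0.000895 to 0.00186. *Klf15* and *Klf9* overlapped against adipocyte markers. Which cells make each KLF was not measured.

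**Figure D3:**
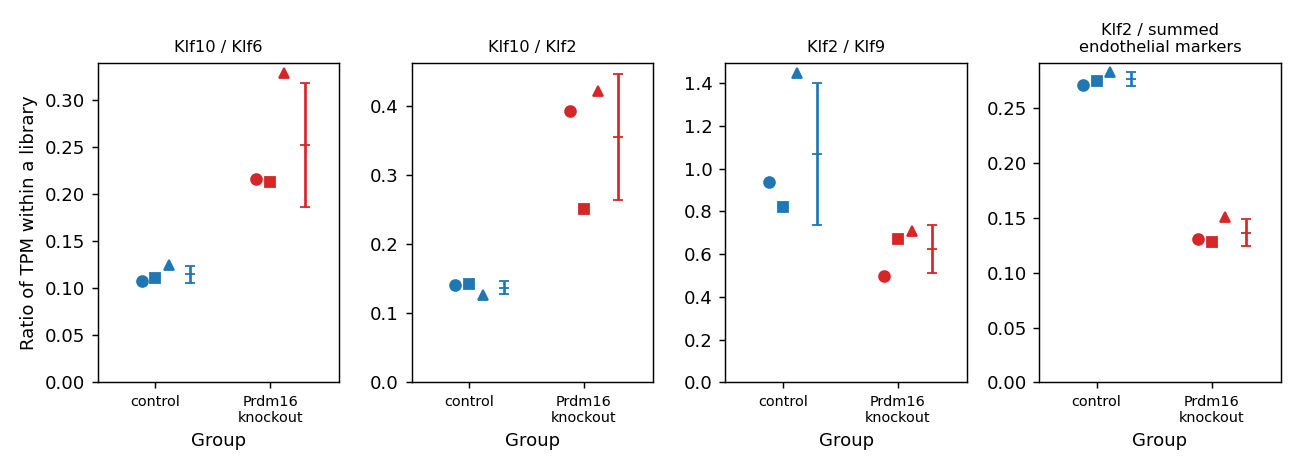
Ratios of TPM within each library for *Klf10* to *Klf6*, *Klf10* to *Klf2*, *Klf2* to *Klf9* and *Klf2* to the sum of 8 endothelial markers, with each of the 3 control (blue) and 3 *Prdm16* knockout (red) libraries as a point (circle, square and triangle for replicates 1, 2 and 3) and the mean ± SD beside them, on axes that start at 0. The 4 ratios were chosen after the values were seen, among those in which the groups do not overlap. Those of *Klf10* to *Klf6* and to *Klf2* had to separate, since the levels of these genes do so in opposite directions.

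The other members of the KLF and SP family, which share the zinc fingers, were looked up in the same fit. Of these 17 genes 9 passed the expression minimum, *Klf7*, *Klf8*, *Klf11*, *Klf12*, *Klf16*, *Sp1*, *Sp2*, *Sp3* and *Sp4*. *Klf14*, *Klf17*, *Sp5* and *Sp8* were listed at 0 in every library, and the others, among them the erythroid factor *Klf1*, had a mean under 0.5 TPM. None of the 9 had an adjusted p under 0.05 (limma) and none an unadjusted p under 0.05. Their groups overlapped in every case, and their median log2 fold change was −0.12. *Sp3* at 28.5 ± 5.79 and 26.3 TPM, *Klf7* at 20.4 ± 1.29 and 17.7 TPM and *Sp1* at 18.9 ± 2.22 and 18.9 TPM (control mean ± SD, n = 3, and *Prdm16*SMKO mean) were the highest. *Sp4* had the lowest log2 fold change at −0.48 (interval −1.07 to 0.11) and *Klf12* the highest at 0.15.

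Genes that regulate KLFs or work with them include the ERK5 pathway and MEF2 factors, which induce *Klf2* and *Klf4*, corepressors such as CtBP and Sin3a, and ubiquitin ligases. All 18 of this list were tested, with 7 higher, 11 lower, a median log2 fold change of −0.02 and none at an unadjusted p under 0.05. *Srf* (−0.36) and *Mef2a* (−0.32) had the lowest and *Elk1* (0.17) and *Wwp1* (0.15), a ligase of KLF proteins, the highest values. *Srf* was the 1 gene of the 18 without overlap, at 60.7 to 88.8 TPM in controls and 47.7 to 60.4 TPM in *Prdm16*SMKO mice. Of all tested genes 12.8% did not overlap.

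Immediate-early genes, the class to which the fast KLFs belong, were lower in *Prdm16*SMKO mice in 20 of 23, with a median log2 fold change of −0.96. Of all 15775 tested genes 7223 had a lower fitted level. This list, like the others, was written with earlier results of these data known. *Nr4a1* (−2.45), *Arc* (−1.995), *Atf3* (−1.66), *Nr4a2* (−1.40), *Fosb* (−1.36) and *Egr3* (−1.29) fell (limma, Benjamini-Hochberg adjusted p under 0.05), where 0.355% of all tested genes were past that threshold. Of the list 15 were lower at an unadjusted p under 0.05, and 14 were lower without overlap. Over all tested genes these shares were 3.85% and 5.76%. With 1 library left out, 0 to 4 immediate-early genes were past the threshold, 0 without control replicate 2, and there were 0 with no expression minimum and 2 without a variance trend. *Fos* was at −2.23, with 27.7 to 134 TPM in controls and 4.57 to 24.7 TPM in *Prdm16*SMKO mice, and *Ccn1*, which ties with it to 2 decimals, was not past the threshold either. The highest values of the list were 0.39 for *Ier3* and 0.38 for *Maff*. *Klf2*, *Klf4* and *Klf6* had the direction of this list, with smaller differences than its median, and *Klf10* had the opposite one. The interval of *Klf4* crossed 0, at −1.05 to 0.15. A link between these KLFs and the immediate-early genes was not tested.

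Clock genes set the daily rhythm that *Klf9*, *Klf10* and *Klf15* are known to follow. Of the 17 tested, 13 were higher and 4 lower in *Prdm16*SMKO mice, and 14 did not overlap, 10 higher and 4 lower. Of all tested genes 12.8% did not overlap, 7.02% higher and 5.76% lower. An unadjusted p under 0.05 (limma) was found in 11 of the list, and in 8.74% of all tested genes. *Npas2*, partner of CLOCK, fell by 2.89 on the log2 scale (limma, Benjamini-Hochberg adjusted p = 0.0149), with 7.73 to 11.1 TPM in controls and 0.32 to 1.49 TPM in *Prdm16*SMKO mice, and was the 1 called gene of the list. Its adjusted p was 0.114 without control replicate 2, 0.0882 without control replicate 3 and 0.1103 with no expression minimum (limma, Benjamini-Hochberg), and no clock gene was called in these 3 fits. *Arntl*, which encodes BMAL1, was at −1.22, from 1.94 to 2.48 TPM in controls and 0.35 to 1.08 TPM in *Prdm16*SMKO mice. The highest values were those of *Ciart* at 1.78, a repressor of CLOCK and BMAL1, and *Hlf* at 1.31, a clock output factor, neither past the adjusted threshold. *Klf10* had the direction of the 13 higher clock genes and the opposite one to the 4 lower, *Npas2* and *Arntl* among them. *Klf9* and *Klf15* had positive log2 fold changes within their error. A link between the clock genes and the KLFs was not tested. Time of day at dissection is not given in the sources used here.

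Glucocorticoid-inducible genes showed no common direction beside *Klf9* and *Klf15*. Of 10 tested, 7 were higher and 3 lower, with a median log2 fold change of 0.07 and none with an adjusted p under 0.05 (limma, 3 at an unadjusted p under 0.05). An unadjusted p under 0.05 was found in 8.74% of all tested genes. *Tsc22d3* (GILZ) was highest at 0.68, with 20.5 to 25.2 TPM in controls and 31.2 to 44.95 TPM in *Prdm16*SMKO mice, followed by *Fkbp5* at 0.21. *Dusp1* at −0.98 and *Sgk1* at −0.79 were lowest, and *Dusp1* is also in the immediate-early list.

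Genes downstream of the KLFs were taken from 3 lists. Of 7 endothelial genes linked to *Klf2* and *Klf4*, 5 were tested and all 5 had a higher mean in *Prdm16*SMKO mice. Their median was 0.33 on the log2 scale, and the 8 endothelial markers had a median of 0.33 as well, with 7 of 8 higher, and their part in this list was not tested. Without *Prdm16*SMKO replicate 2 the median of the list was 0.0982, with *Vcam1* at −0.0495 and *Cyp1b1* at −0.11. *Nos3*, the endothelial nitric oxide synthase that *Klf2* activates, was at 8.27, 8.88 and 13.4 TPM in controls and at 13.7, 26.1 and 14.97 TPM in *Prdm16*SMKO mice, without overlap (log2 fold change 0.78, limma, unadjusted p = 0.0212, Benjamini-Hochberg adjusted p = 0.448). Its direction was opposite to that of *Klf2*. *Edn1*, which *Klf2* represses, was at 0.36, *Vcam1* at 0.28 and *Cyp1b1* at 0.16, all with overlap. *Thbd*, the anticoagulant receptor that *Klf2* induces, was at 0.33, and *Sele* and *Nppc* were below the minimum. Of 8 VSMC contractile genes that *Klf4* and *Klf5* act on, 6 were lower, and the median of the 8 was −0.39. None had an adjusted p under 0.05, and 3 had an unadjusted p under 0.05 (limma), 2 lower and 1 higher. Over all tested genes 3.85% were lower and 4.88% higher at such an unadjusted p. The 6 lower genes are the 6 VSMC markers summed above, which had a median of −0.46. The part of VSMC content in this list was not tested. *Smtn* (−0.53) and *Cnn1* (−0.48) were lowest and *Des* (0.51) and *Myocd* (0.13) highest. Of 7 metabolic genes linked to *Klf15*, 6 had a higher mean with a median of 0.30, none at an unadjusted p under 0.05. *Gpt* (0.91) and *Slc2a4* (0.71) were highest, with the highest value of each in *Prdm16*SMKO replicate 3, the library with the most adipocyte RNA, and *Hsd17b10* (−0.07) and *Prodh* (0.10) were lowest.

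**Figure D4:**
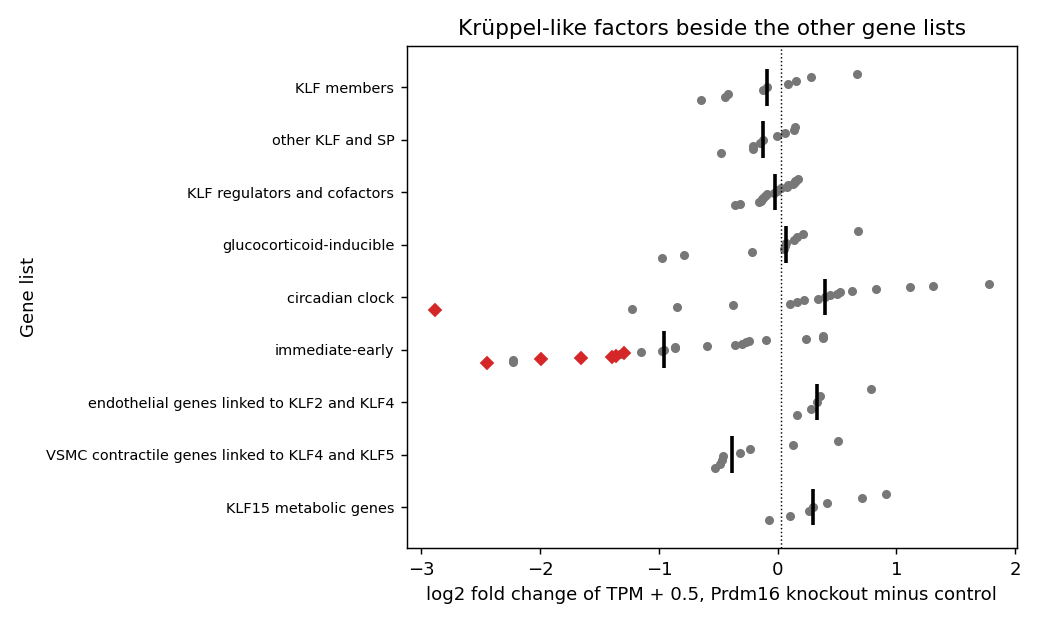
Log2 fold changes of TPM + 0.5 (*Prdm16* knockout minus control) for each tested gene of the KLF list and of 8 other lists, with red diamonds for genes at an adjusted p under 0.05, black bars at the list medians and a dotted line at the median of all tested genes. The KLFs spread from −0.65 to 0.67 around that line, while the immediate-early genes have a median of −0.96 and the clock genes reach from −2.89 to 1.78.

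For the 3 KLFs whose log2 level spanned at least 1 over the 6 libraries, *Klf2*, *Klf4* and *Klf10*, the genes with the most similar pattern were found among 9668 genes whose mean reached 5 TPM. Likeness was the root mean square distance between log2 values, each gene centred on its mean of the 6 libraries. Nearest to *Klf2* were *Tent5a* (distance 0.14), *Errfi1* (0.15), a feedback inhibitor of the EGF receptor, and *Glis2* (0.16), a zinc finger factor related to the KLFs. Nearest to *Klf4* were *Klf2* itself (0.16), *Slc35a2* (0.16) and *Errfi1* (0.16). Nearest to *Klf10* were *AW112010* (0.09), *Tbkbp1* (0.11), which encodes a protein that binds the kinase TBK1, and *Aff3* (0.12). *AW112010* was at 3.42 to 4.42 TPM in controls and 5.86 to 7.44 TPM in *Prdm16*SMKO mice, and *Tbkbp1* at 6.11 to 6.82 and 9.05 to 14.5 TPM. Every control value of *AW112010* was under 5 TPM, so it passed that minimum only through its *Prdm16*SMKO values. *Tent5a* was at 19.0 to 22.9 TPM in controls and 12.7 to 15.8 TPM in *Prdm16*SMKO mice. These genes were picked for their pattern over the same 6 libraries, so their differences between the groups follow from the choice.

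**Figure D5:**
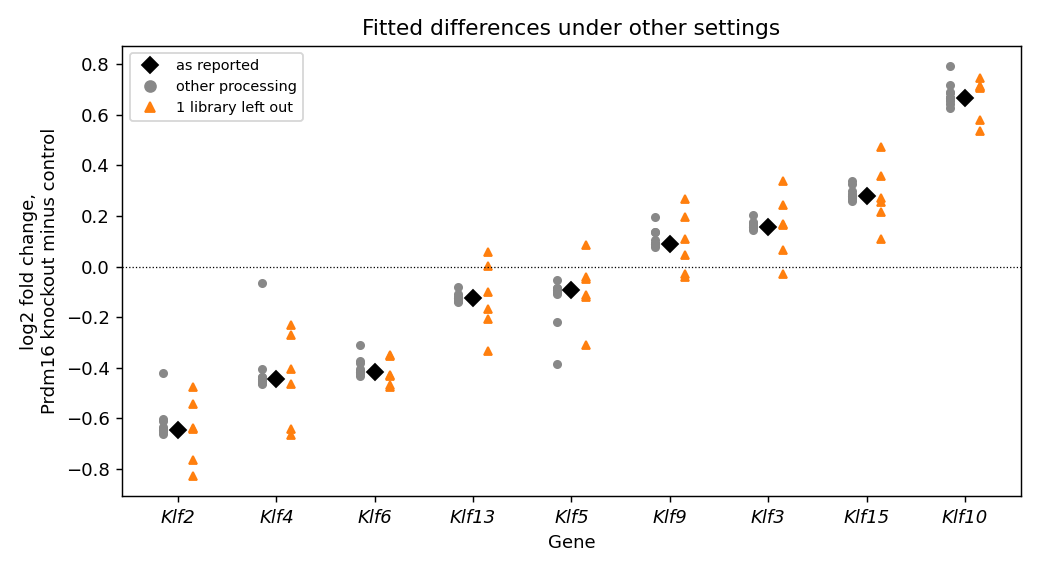
Log2 fold changes of the 9 Krüppel-like factors (*Prdm16* knockout minus control) as reported (black diamonds), under 12 other processing settings (grey circles) and after removal of single libraries, 6 fits (orange triangles). *Klf2*, *Klf4* and *Klf6* stay below 0 and *Klf10* and *Klf15* above 0 in all of these fits, while *Klf3*, *Klf5*, *Klf9* and *Klf13* cross 0 when 1 library is left out.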

How the data were processed

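The authors sequenced polyadenylated RNA as read pairs of 151 bp and deposited TPM values, rounded to 2 decimals, for 55426 genes. The submitters' processing notes name cutadapt 2.3, STAR 2.7.8a, RSEM 1.3.3 and GRCm38, without the annotation or filters. TPM keeps no read depth, so no counting error or detection limit was computed. Columns were matched to samples by the names in the labels.

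The groups were compared on log2(TPM + 0.5) by limma 3.58.1 in R 4.3.3 for the 15775 genes whose mean reached 0.5 TPM, with a variance trend, two-sided tests and Benjamini-Hochberg adjustment. The fit was tested on simulated data. Single values were compared by exact permutation over libraries, and motifs were searched on both strands. Gene positions are from GENCODE M21 on GRCm38 and promoters from RefSeq on GRCm38.p6. Lists were written from general knowledge, and the members and lists were chosen with earlier results of these data known. All KLF and SP genes above the minimum, *Prdm16*, the called genes of each list and the 2 highest and 2 lowest of each are named, with the 3 genes most like each KLF that spanned at least 1 on the log2 scale, and *Ccn1*, *Thbd*, *Sele*, *Nppc*, *Klf1*, *Klf14*, *Klf17*, *Sp5*, *Sp8*, *Gm20033* and *Myl7* were named outside this rule. The alternatives were a pseudocount of 0.1 or 1, a minimum of 2 TPM or none, other scalings and variance settings, a block for the replicate number and 1 library left out. Rescaling without mitochondrial and ribosomal RNA genes was added after seeing the data. Figures used matplotlib 3.10.9.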

Additional observations from a re-analysis of the deposited data

How the results depend on the processing

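The 18 alternatives left the KLF median between −0.12 and 0.06 and the number of KLFs with a lower level between 4 and 7. The number of KLFs at an adjusted p under 0.05 was 0 in 17 of them and 1, *Klf10*, with array weights. At an unadjusted p under 0.05 the number was 3 or 4 under other processing and 1 to 4 with a library left out, with 1 without *Prdm16*SMKO replicate 1. *Klf3* (−0.0299 to 0.34), *Klf5* (−0.31 to 0.0834), *Klf9* (−0.0425 to 0.27) and *Klf13* (−0.33 to 0.0588) changed sign with a library left out, where *Klf8* ran from −0.11 to 0.27, *Klf12* from −0.0877 to 0.36, *Sp1* from −0.12 to 0.0821, *Sp2* from −0.30 to 0.0022 and *Sp3* from −0.32 to 0.0483, *Fkbp5* from −0.0566 to 0.43, *Cyp1b1* from −0.11 to 0.35, *Vcam1* from −0.0495 to 0.53, *Myocd* from −0.0339 to 0.24, *Hsd17b10* from −0.19 to 0.0946 and *Prodh* from −0.15 to 0.26. *Klf8* was at −0.059 and *Prodh* at −0.0136 under quantile normalization, *Prodh* at −0.0848 and *Gpt* at −0.0229 with array weights, and *Sp1* at 0.0415 without mitochondrial genes and 0.0118 without ribosomal RNA genes as well. The cause of these changes was not tested.

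With array weights 1 glucocorticoid-inducible gene, 1 endothelial gene linked to *Klf2* and *Klf4*, 5 clock genes and 12 immediate-early genes were past the threshold. With no expression minimum no clock and no immediate-early gene was (0 and 0), and without a variance trend 2 immediate-early genes were. With a library left out the number was 0 or 1 clock genes, with 0 without control replicate 2 or 3, and 0 to 4 immediate-early genes, with 0 without control replicate 2. Over all tested genes the number past the threshold, 56 as reported, was 10 with no expression minimum, 153 with median-of-ratios scaling, 129 with quantile normalization, 33 without a variance trend, 112 with robust variances, 494 with array weights, 123 without mitochondrial and ribosomal RNA genes, and 5 to 61 with a library left out. Median-of-ratios scaling gave 60 higher and 93 lower genes and quantile normalization 46 and 83, against 29 and 27 as reported.

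With a block for the replicate number 4 genes were past the threshold, with 0 clock genes, 1 immediate-early gene and 0 KLFs. The deviations of same-numbered libraries from their group means correlated at −0.13, −0.11 and 0.02, so the numbers were not taken as pairs.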
